A study of Rubus occidentalis with 14 samples.

Results

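The last part of fruit development in black raspberry (Rubus occidentalis) was followed here as the difference between stage 5, the final stage of the labels, and stages 3 and 4 as one group. The fruit is an aggregate of small drupelets, and in raspberries ripening is known to involve loss of chlorophyll, accumulation of anthocyanins, softening through cell wall enzymes, and gain of sugars and aroma. The genes compared were those that reached 10 normalised counts in at least 2 of the 8 libraries involved, which left 16647 of 33253 genes in the table, or 50.1%. Of the 16606 genes set aside, 10447 had no reads in these 8 libraries and 6159 had reads below the minimum. Near the minimum, 163 genes were kept with a second-highest value between 10 and 11, and 180 were set aside with one between 9 and 10. The nearest second-highest values on either side were 10.1 and 9.92.

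The plants were all of one advanced selection, NC 349, planted at a research station, and no treatment separated the groups. Poly(A) RNA from whole fruit was sequenced, with 3 libraries of stage 3, 2 of stage 4 and 3 of stage 5. The labels number the stages, with letter codes in the library names that are not explained, and give neither firmness nor days. They call the libraries biological replicates without saying which plants or fruits each came from. Within stages 3 and 5, and likewise within stages 1 and 2, replicates 2 and 3 have one title code in common that replicate 1 does not have, and what such a shared code means is not stated. P-values thus rest on the spread among these libraries, and some of that spread could be technical. The 5 libraries of stages 3 and 4 form one group, so any difference between those stages counts towards the spread within it. The libraries of stages 1 and 2, 3 each, are used for the earlier course of the same genes. In bulk fruit, fewer cells of a type and less RNA per cell cannot be told apart. The table names genes by identifier alone, so functions, tissue markers, chromosome positions and sequences are not given, and the fruit label could not be set against marker genes.

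Recovered totals in the 8 libraries ranged from 8597118 to 34512921 reads. One read was worth between 0.584 and 2.76 normalised counts, so low levels were resolved most coarsely in the shallow libraries. All 3 stage 5 libraries and 2 of the other 5 have title codes opening with YH, while stage 3 replicates 2 and 3 and stage 4 replicate 2 have codes opening with TH, and the labels do not say what the letters stand for. Across genes, on the log2 scale, the Pearson correlation was 0.965 to 0.973 between stage 5 libraries and 0.962 to 0.975 between a stage 3 and a stage 4 library. Between stage 5 and stage 3 it was 0.895 to 0.931, and between stage 5 and stage 4 it was 0.933 to 0.942. These values describe the libraries, since genes are not independent replicates. The leading principal component of the 8 libraries held 58.3% of the variance. On it the stage 3 libraries lay between -73.1 and -45.8, the stage 4 libraries at -27.9 and -31.5, and the stage 5 libraries between 72.5 and 84.5. The next component held 10.6% and set stage 5 replicate 2, at 58.9, apart from the other 7 libraries, which lay between -32.7 and 23.0.

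The comparison asks which genes still change in level at the end of the series. From stages 3 and 4 to stage 5, 2587 genes rose and 2939 fell, 5526 in all or 33.2% of those tested (limma, Benjamini-Hochberg adjusted p below 0.05). Rises made up 15.5% and falls 17.7% of the genes tested. Among the genes called, falls were larger than rises. The median log2 change was 0.72 among the genes that rose and -1.13 among those that fell, while over all genes tested it was -0.01. A log2 change is on the scale of log2(normalised count + 1), which understates the change of genes with low values. At least a log2 change of 1 was reached by 874 rising and 1682 falling genes, and at least 4 by 48 and 93. Level differed between the 2 sets, and where the SE is larger only larger changes pass. With a mean under 30 normalised counts over the 8 libraries, 150 genes rose and 397 fell, and the median SE was 0.52. From 1000 to 3000, 672 rose and 419 fell, and the median SE was 0.14. Sizes of rises and falls were not compared at equal level.

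**Figure D1:**
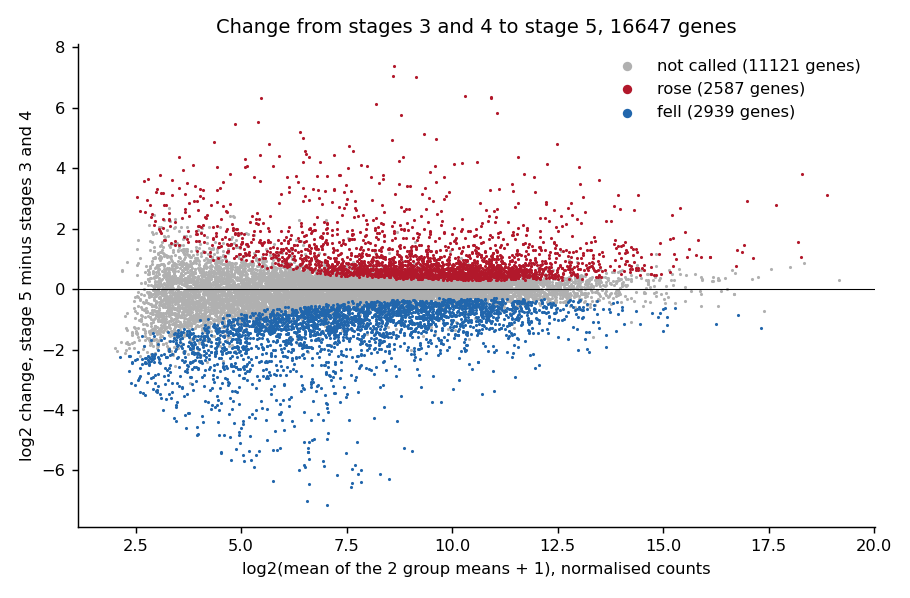
Log2 change from stages 3 and 4 (n = 5 libraries) to stage 5 (n = 3) on the vertical axis against log2 of the mean level in normalised counts on the horizontal axis, 1 point per gene. Genes that passed the test at an adjusted p below 0.05 are red where they rose (2587) and blue where they fell (2939), and the grey band of uncalled genes widens at low levels.

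The groups seldom overlapped in the called genes. All 3 stage 5 libraries lay above all 5 others in 2390 of the 2587 rising genes, and below them in 2642 of the 2939 falling genes. Over all 16647 genes the stage 5 libraries lay wholly above in 17.8% and wholly below in 18.3%. A further 983 of the 11121 uncalled genes also had no overlap.

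Fewer genes were called when libraries were left out or the title letters were a term. Leaving out each of the 8 libraries in turn gave 4231 to 5242 calls, and 3262 genes (1414 rising and 1848 falling) were called in one direction in all of these fits. With the title letters as a term, 2907 genes were called (1247 rising and 1660 falling). Among the 5 libraries with YH codes alone, 2 against 3, it was 2311 (1005 and 1306), of which 2286 had been called in the same direction among all 8. All 5526 genes called among the 8 libraries kept their direction among these 5, with median log2 changes of 0.73 and -1.13 in place of 0.72 and -1.13. These 5 libraries are part of the 8, and fewer libraries were fitted. A gene without overlap between the groups, as in 2390 of the rises and 2642 of the falls, could not change direction among them. The kept directions are thus no separate support. Every TH library is in stage 3 or 4, so in the pooled comparison the letters as a term give the same log2 changes as the YH libraries alone. Among the scalings compared, equal total reads moved the balance of directions most. Rises were 46.8% of the calls as deposited, 44.1% with upper-quartile scaling and 48.2% after quantile normalization. They were 17.1% with every library scaled to equal total reads, a scaling that moved the median change over all genes to -0.33 on the log2 scale. Relative to that median, genes called and changed by at least 1 numbered 2594 under equal total reads, with 754 above and 1840 below it, against 874 and 1682 as deposited.

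The largest rises were in genes with almost no reads in stage 3. Ro01_G29570 stood at 1.17, 2.56 and 0 normalised counts in stage 3 replicates 1 to 3, at 19.4 and 12.6 in the stage 4 libraries, and at 687, 807 and 828 in those of stage 5. The stage 3 values rested on 2, 1 and 0 reads, whereas stage 5 held 292 to 702 reads per library. The groups were far apart. The stage 4 libraries lay above those of stage 3, a difference that was not called (limma adjusted p 0.114). From 7.14 ± 8.47 (SD, n = 5) it went to 774 ± 75.7 (n = 3), with log2 change 7.38 ± 0.84 (SE, limma adjusted p 0.000119). The gene was not low throughout earlier development, since the stage 1 libraries held 53.2, 16.3 and 37.7 and those of stage 2 1.72, 5.01 and 2.64. It had fallen from stage 1 to stage 2, by 3.09 ± 0.51 on the log2 scale (limma adjusted p 0.00327).

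Ro03_G05912, the other gene with the largest rise, was at 8.76, 0 and 0 in stage 3, 21.8 and 23.6 in stage 4, and 1024, 608 and 662 in stage 5. All stage 5 libraries were above all others. Its means were 10.8 ± 11.4 (SD, n = 5) and 765 ± 226 (n = 3), a log2 change of 7.06 ± 1.06 (SE, limma adjusted p 0.000638). It differed from Ro01_G29570 in stage 1, where its 3 libraries held 2.55, 0 and 0.99. The size of this change rested on the libraries with no reads: the log2 change was 6.44 without stage 3 replicate 2 and also without stage 3 replicate 3, and 5.64 among libraries with YH codes, with the gene still called.

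The largest falls were in genes that had been present at every earlier stage. Ro03_G06304 held 220, 251 and 400 normalised counts in stage 3, 172 and 240.0 in stage 4, and 0, 0 and 4.43 in stage 5. The last of these was 3 reads, the only ones in stage 5. Its mean was 257 ± 85.7 (SD, n = 5) before stage 5, and the limma adjusted p was 9.59e-06. Reads pooled within each group, over the summed size factors, differed 169-fold (95% exact Poisson interval 57.7 to 822), an interval that covers counting error only. The stage 1 libraries had held 122, 105 and 74.2 and those of stage 2 219, 150.4 and 198. The level thus had risen by 0.92 ± 0.24 on the log2 scale from stage 1 to stage 2 (limma adjusted p 0.0213).

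Ro03_G26880 fell in the same manner, from 190.3, 118 and 340 in stage 3 and 150.0 and 136 in stage 4 to 0, 0 and 1.48 in stage 5. That value was a single read. The mean before stage 5 was 187 ± 89.7 (SD, n = 5, limma adjusted p 3.47e-06), and its pooled reads differed 377-fold (interval 67.5 to 14920). In stages 1 and 2 the gene had been between 159 and 415 in every library. The fitted log2 changes of these 2 genes, -7.14 and -7.01, depend on the value added before the logarithm and are no bound. Without stage 5 replicate 3, which held the reads, that of Ro03_G06304 was -7.95.

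**Figure D2:**
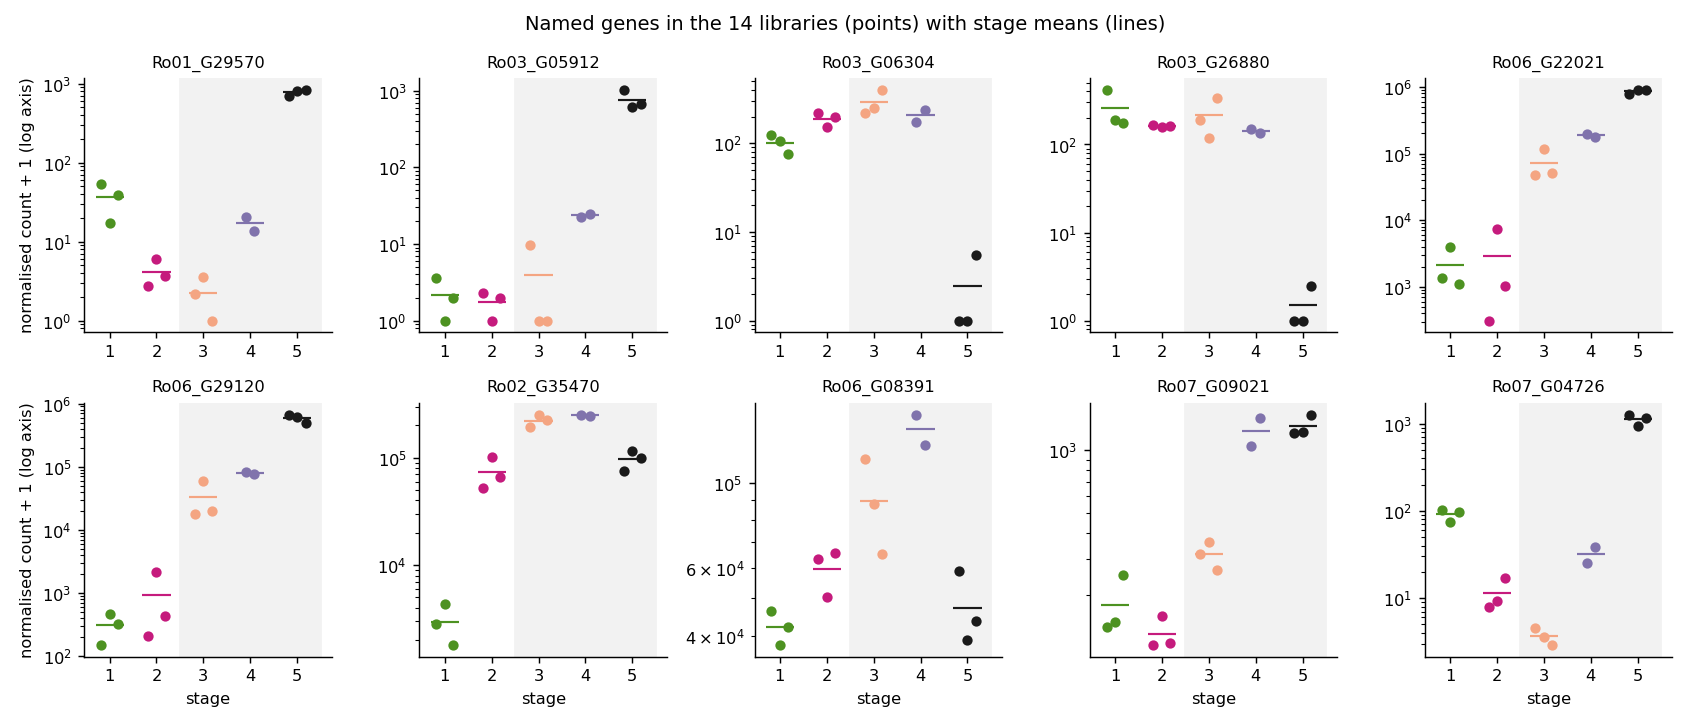
Normalised counts plus 1 on log axes (vertical, 1 panel per gene with its own range) against stage (horizontal) for the 10 genes named in the text, with points for the 14 libraries and lines for stage means. Grey shading marks the 8 libraries compared, in which stage 5 lies apart from stages 3 and 4 in 9 of the panels, while in Ro07_G09021 the step lies between stage 3 and stage 4.

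Complete loss or gain of detectable RNA was rare among the genes kept. Of the genes kept, 19 lacked reads in all stage 5 libraries, and their mean in stages 3 and 4 was between 6.001 and 52.1 normalised counts. The highest of them was at least 9.97-fold lower in stage 5, against a floor of 3 reads per library. In the other direction, 4 genes had no reads in any library of stages 3 and 4 and means of 10.9 to 86.7 in stage 5, at least 2.19-fold to 17.4-fold higher. All 19 and all 4 had reads in stage 1 or 2. With a mean of at least 100 in the other group, 5 genes had at most 3 reads over stage 5 and 1 gene at most 3 over stages 3 and 4. Depth was not equal, as the size factors summed to 2.06 in stage 5 and 4.24 in stages 3 and 4. Low levels were thus harder to detect in stage 5. The minimum for keeping genes also shaped these counts. A gene without reads in stage 5 had to reach 10 normalised counts in at least 2 of 5 libraries. One without reads in stages 3 and 4 had to do so in at least 2 of 3. The 6159 genes with reads that were set aside are not in these counts.

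Reads were most concentrated at stage 5, after rises in concentration at each earlier step. The 10 genes with the most reads in a library took 9.14%, 10.2% and 8.97% of reads in stage 3 libraries, then 11.04% and 10.7% in those of stage 4 and 17.4%, 16.7% and 15.3% in those of stage 5. No stage 5 library overlapped the others. The means were 10.02% ± 0.93 (SD, n = 5) and 16.5% ± 1.09 (n = 3). The two-sided exact permutation test gave p = 0.0357, which is its lowest possible value for 5 and 3 libraries. For the 100 genes with the most reads the shares were 29.9% ± 2.41 and 38.2% ± 1.02, and the exact permutation p was again 0.0357. In stages 1 and 2 the mean share of the 10 genes had been 3.80% and 7.80%. That of the 100 genes was 13.6%, 20.8%, 28.6%, 32.0% and 38.2% over stages 1 to 5.

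The gain in normalised counts lay in few genes. Summed normalised counts were not constant, with a mean per library 1.24-fold higher in stage 5 than in stages 3 and 4. Gains over genes summed to 8.11e+06 and losses to -2.69e+06, and both follow the size factors as deposited. Summed over genes whose mean was higher in stage 5, 34.7% of the gain in normalised counts came from the 10 genes with the largest gain and 62.7% from 100. Losses were more evenly spread, with 18.3% from the 10 genes with the largest loss and 41.9% from 100. Of the 10 genes with the highest mean in stage 5, 6 had been among the 10 highest of stages 3 and 4. Their log2 changes ran from 0.30 to 3.80, with 6 called as rises and 0 as falls, beside 15.5% and 17.7% of all genes. Of the 100 highest in stage 5, 77 had been among the 100 highest before. Among the 100 of stage 5, 42 were called as rises, 4 as falls and 54 were not called. Choosing genes by a high stage 5 mean favours rises, so these counts are a description. Of the 100 highest in stages 3 and 4, a choice that favours falls, 24 were called as rises and 14 as falls.

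Ro06_G22021 gained the most of any gene meeting the rule for named genes. It held 47068, 117526 and 50524 normalised counts in stage 3, 195034 and 178769 in stage 4, and 770417, 899762 and 898722 in stage 5. Stage 5 did not overlap with any earlier stage. Both stage 4 libraries lay above those of stage 3, a difference that was not called (limma adjusted p 0.203). It rose 7.27-fold, from 117784 ± 69303 (SD, n = 5) to 856300 ± 74379 (n = 3), a log2 change of 3.10 ± 0.50 (SE, limma adjusted p 0.000978). By itself it made up 9.10% of the summed gains, and its part of all normalised counts went from 0.532% to 3.11%. It had been between 309 and 7461 in stages 1 and 2, where stage 2 replicate 2 was the highest library.

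Ro06_G29120 was second in gain. Its stage 3 libraries held 18063, 59898 and 20164, those of stage 4 81454 and 77325, and those of stage 5 667421, 618605 and 498186. The groups again did not overlap. The mean rose 11.6-fold, from 51381 ± 30556 (SD, n = 5), a log2 change of 3.80 ± 0.52 (SE, limma adjusted p 0.000348), and the gene accounted for 6.70% of the summed gains. After quantile normalization the log2 changes of Ro06_G22021 and Ro06_G29120 were 2.37 and 3.08, both still called.

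The largest losses in normalised counts were in genes that stayed abundant. Ro02_G35470 held 192304, 247932 and 226262 in stage 3, 252149 and 242668 in stage 4, and 75129, 115865 and 100003 in stage 5. All stage 5 libraries were below all others. The mean was 2.39-fold lower, at 96999 ± 20534 (SD, n = 3) after 232263 ± 24403 (n = 5), a log2 change of -1.28 ± 0.26 (SE, limma adjusted p 0.00354). This gene had risen from stage 1, at 1793 to 4326, to stage 2, at 51844 to 102414 (log2 change 4.65 ± 0.38, limma adjusted p 0.000137), so its highest levels lay in stages 3 and 4. Among libraries with YH codes the log2 change was -1.21 and the gene was not called (adjusted p 0.0752). After quantile normalization it was -2.14.

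Ro06_G08391 went from 115496, 87895 and 65149 in stage 3 and 150409 and 125502 in stage 4 to 59058, 38905 and 43733 in stage 5. The gap between the groups was narrow, since stage 3 replicate 3 was near stage 5 replicate 1. The mean was 2.31-fold lower, 47232 ± 10522 (SD, n = 3) after 108890 ± 33157 (n = 5), with a log2 change of -1.17 ± 0.29 (SE, limma adjusted p 0.0107). Stage 5 was then within the range of the stage 1 libraries for 2 of its 3 libraries, which had held 37750 to 46396.

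As sets, the called genes held changing parts of each library. The rising genes made up 18.8% to 21.9% of reads in the stage 3 libraries, 22.2% and 23.0% in those of stage 4 and 38.6% to 40.4% in those of stage 5. The falling genes held 16.3% to 19.8%, then 15.6% and 16.0%, then 6.97% to 7.92%. These 8 libraries chose the sets, so the values are a description. In the libraries of stages 1 and 2, which did not, the rising genes held 15.4% to 16.8% and the falling genes 21.3% to 23.0%. Both shares were about level between those early stages.

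**Figure D3:**
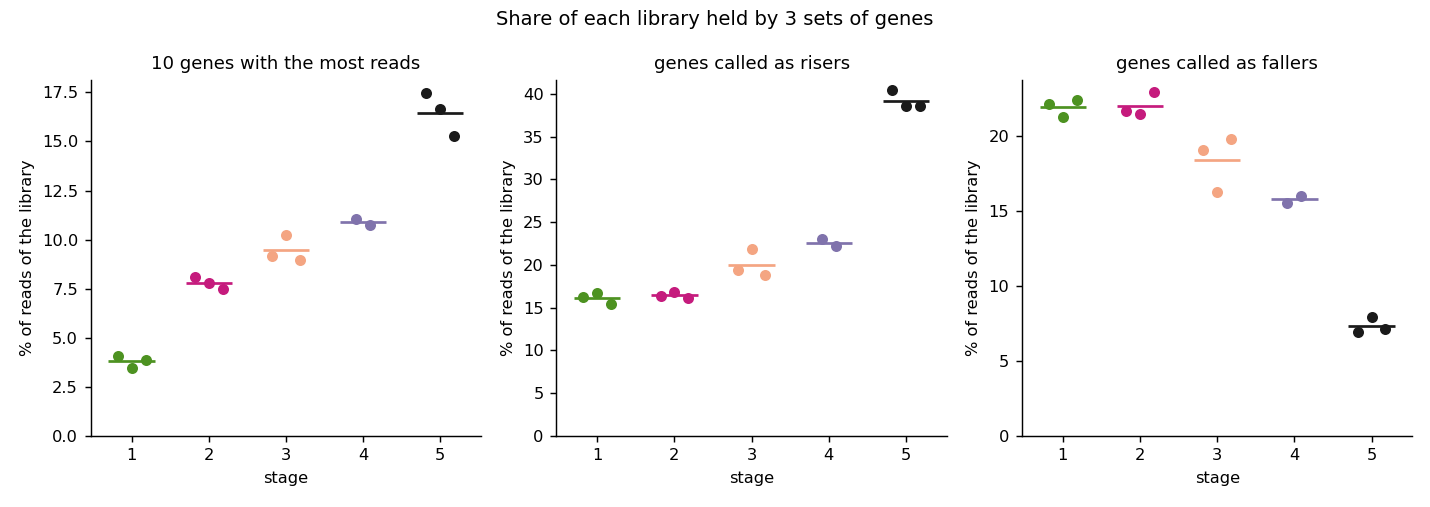
Percent of the reads of each library (vertical) by stage (horizontal) held by the 10 genes with the most reads in that library, by the 2587 genes called as risers and by the 2939 called as fallers, with points for libraries and lines for stage means. In stage 5 the shares were 15.3% to 17.4%, 38.6% to 40.4% and 6.97% to 7.92%, and in each panel the stage 5 libraries lay apart from those of stages 3 and 4.

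Calls were made more often in genes with more reads. Of 2876 genes with a mean under 30 normalised counts over the 8 libraries 19.0% were called, and of 321 genes at 10000 or more 42.7% were. The median SE of the log2 change was 0.52 in the former and 0.20 in the latter. Rises and falls differed in level as deposited: 5.22% of the lowest class rose and 13.8% fell, against 30.8% and 11.8% of the highest class. Under each of the scalings compared, rises were a larger share of the highest class than of the lowest, whereas the balance of rises and falls in the highest class changed with the scaling. With upper-quartile scaling 4.83% of the lowest class rose and 14.05% fell, against 30.5% and 13.4% of the highest. After quantile normalization 8.73% of the lowest class rose and 9.46% fell, against 21.5% and 26.8% of the highest. With equal total reads 3.41% of the lowest class rose and 20.03% fell, against 22.4% and 27.4% of the highest. With genes classed by their stage 2 mean, from libraries outside the comparison, 16.9% of the lowest class rose and 9.44% fell. Of the 124 genes at 10000 or more, 12.9% rose and 31.5% fell. Calls as deposited were used here, and this reversed the balance that they had in classes over the 8 libraries. The genes were kept by their values in the 8 libraries. One with hardly any reads in stage 2 thus had to be higher later, which favours rises in the lowest class. Classes over the 8 libraries used the levels compared, so the reversal is a description. The share called was similar over the 7 opening codes of the identifiers, from 30.9% for Ro07 to 34.7% for Ro01.

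**Figure D4:**
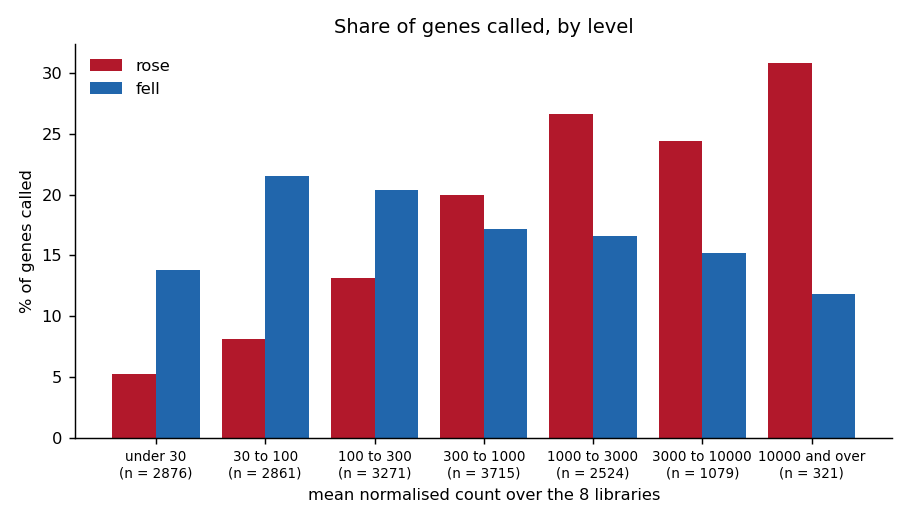
Percent of genes called as rising (red) or falling (blue) from stages 3 and 4 to stage 5, on the vertical axis, in 7 classes of mean normalised count over the 8 libraries, on the horizontal axis with the number of genes in each. As deposited, rises went from 5.22% to 30.8% between the lowest and highest classes, and falls from 13.8% to 11.8%. With classes set by stage 2, among the same genes kept by their values in the 8 libraries, rises went from 16.9% to 12.9%.

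Stages 3 and 4 were also set against stage 5 separately in one fit of the 3 stages. These comparisons share the stage 5 libraries. Against stage 3, stage 5 was higher in 2874 genes (17.3%) and lower in 3047 (18.3%), 5921 called or 35.6%. Against stage 4 it was higher in 1296 (7.79%) and lower in 1853 (11.1%), 3149 called or 18.9%. Stage 4 had 2 libraries, and leaving out replicate 1 or 2 lowered its calls to 1338 or 1070, where the spread of the single library left is taken from the other stages. With the title letters as a term the counts were 3545 and 1886. Among the genes that rose in the pooled comparison the median log2 change was 0.79 from stage 3 and 0.63 from stage 4, and among those that fell -1.21 and -1.005. Over all genes both medians were -0.01.

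Whether the 2 stages differ in their distance from stage 5 is the same question as whether they differ from each other. Between stage 3 and stage 4, limma called 2 genes, both rising (0.012% of those tested), and 0 fell, and 2190 genes had an unadjusted p below 0.05. The edgeR quasi-likelihood test called 2 as well, with 2303 at an unadjusted p below 0.05, while DESeq2 called 303, of which 228 rose. The count thus moved with the test, and it also moved when some single libraries were left out. Leaving out stage 3 replicate 2 gave 175 calls, leaving out stage 5 replicate 3 gave 11, and leaving out stage 4 replicate 1 gave 4. It was 0 when stage 4 replicate 2 was left out, with 1141 genes at an unadjusted p below 0.05. Without stage 5 replicate 1 or replicate 2 it was 1 each time, and without stage 3 replicate 1 or replicate 3 it was 3 each time. Stage 4 was represented by 2 libraries, so a gene that missed the threshold here is not shown to be equal in the 2 stages. The median SE of this contrast was 0.25 on the log2 scale.

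Ro07_G09021 was the called gene that met the rule for names. Its stage 3 libraries held 316, 359 and 265 normalised counts, those of stage 4 1050.1 and 1422, and those of stage 5 1205, 1216 and 1481. The step thus lay between stages 3 and 4, with stage 4 and stage 5 overlapping. The log2 change from stage 3 to stage 4 was 1.97 ± 0.19 (SE, limma adjusted p 0.0130), and from stage 4 to stage 5 it was 0.08 ± 0.19 (adjusted p 0.788). The 5 libraries of stages 3 and 4 ranged from 265 to 1422, and the pooled comparison did not call the gene (1.27 ± 0.50, adjusted p 0.0725). Of 24 alternative settings of that comparison, 4 called it. These were the 3-stage fit with stages 3 and 4 equally weighted (log2 change 1.07, limma adjusted p 0.000491) and the fit of all 14 libraries (1.27, 0.00032). The others were the fits without stage 4 replicate 1 (1.51) or replicate 2 (1.62). The call between stages 3 and 4 was lost with a flat prior variance (log2 change 1.97, limma adjusted p 0.153) and with a replicate block (1.96, adjusted p 0.188). It was also lost without stage 4 replicate 2 (log2 change 1.75) and among libraries with YH codes (1.73), fits that leave a single stage 4 library.

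Ro07_G04726, the other called gene, lies below the level set for names at this step and was named after its values were seen. It held 3.50, 2.56 and 1.88 in stage 3, on 6, 1 and 1 reads, 24.2 and 37.9 in stage 4, and 1265, 948 and 1145 in stage 5. Stage 4 lay wholly above stage 3, and stage 5 wholly above stage 4. The log2 change from stage 3 to stage 4 was 3.13 ± 0.32 (SE, limma adjusted p 0.0156), and from stages 3 and 4 to stage 5 it was 7.03 ± 0.80 (adjusted p 0.000117). Its stage 1 libraries had held 101, 72.7 and 96.7, and it fell from there to stage 2 by 3.06 ± 0.34 on the log2 scale (limma adjusted p 0.000566). The call between stages 3 and 4 was lost without stage 4 replicate 2 (log2 change 2.81, adjusted p 0.322) and among libraries with YH codes (2.48, adjusted p 0.612). It was also lost without stage 5 replicate 1 (limma adjusted p 0.0967) or 2 (0.0681), where the log2 change stayed at 3.13. With the title letters as a term it was lost too (3.12, adjusted p 0.0743). The other settings that lost it were a pseudocount of 10 (1.68, adjusted p 0.0774), a flat prior variance (3.13, adjusted p 0.0676) and a replicate block (3.06, adjusted p 0.225).

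The earlier course of the genes was read from stages 1 and 2, whose libraries the comparison with stage 5 did not use. Over the 16647 genes, 3346 rose (20.1%) and 3378 fell (20.3%) from stage 1 to stage 2 in the fit without the replicate number. Of the 2587 genes that later rose to stage 5, 603 (23.3%) had risen and 450 (17.4%) had fallen at this first step. Of the 2939 that later fell, 720 (24.5%) had risen and 722 (24.6%) had fallen. Seen from the first step, the later risers made up 18.02% of the genes that rose then and 13.3% of those that fell, and the later fallers 21.5% and 21.4%. As deposited, the later fallers were split almost evenly between directions. With the replicate number as a block, 3890 genes rose (23.4%) and 3748 fell (22.5%), and 26.4% of the later risers had risen and 20.02% had fallen, beside 28.8% and 26.8% of the later fallers. The shares moved with the scaling: with quantile normalization in both comparisons 26.7% of the later risers had risen and 16.5% had fallen, beside 27.2% and 16.6% of all genes. Of the later fallers, 32.6% had then risen and 19.03% had fallen, no longer an even split. With equal total reads the shares were 19.6% and 31.7% for risers and 16.2% and 30.7% for fallers, beside 12.9% and 29.98% of all genes.

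The stage of the extreme means is given as a description. The choice of the genes keeps stage 5 from being the highest stage of a falling gene or the lowest of a rising one, which raises the shares of the other stages. Of the 2939 falling genes, stage 1 had the highest mean for 1074 (36.5%), stage 2 for 736 (25.04%), stage 3 for 590 (20.1%) and stage 4 for 539 (18.3%). Over all genes kept the shares were 31.9%, 16.4%, 7.71% and 15.1%, with 28.9% in stage 5. Of the 2587 rising genes, stage 1 had the lowest mean for 1231 (47.6%), stage 2 for 687 (26.6%), stage 3 for 397 (15.3%) and stage 4 for 272 (10.5%). Over all genes kept they were 34.1%, 14.7%, 8.34% and 15.6%, with 27.3% in stage 5. A small group of the rising genes, 291 (11.2%), had its highest mean in stage 1, above that of stage 5, beside the 31.9% of all genes. The median level of the rising genes over stages 1 to 5 was 401, 385, 476, 549 and 891 normalised counts. That of the falling genes was 345, 340, 279, 235 and 110.3. Over all genes kept it moved from 289 in stage 1 to 231 in stage 5. The values of stages 3 to 5 were used to choose both groups, so their order there is no further evidence.

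**Figure D5:**
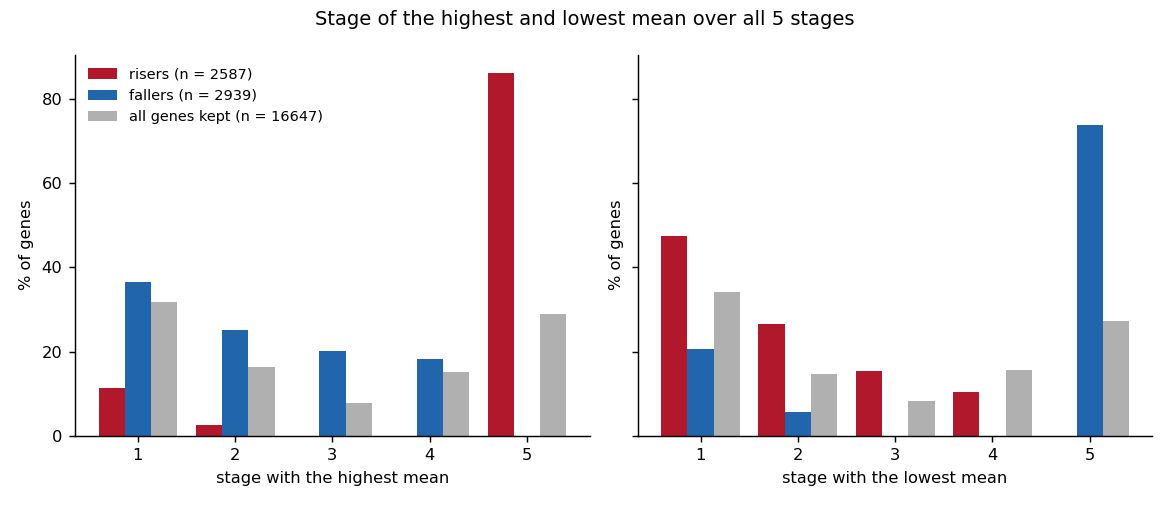
Percent of genes (vertical) whose highest mean (left) or lowest mean (right) over all 5 stages fell in each stage (horizontal), for the 2587 genes that rose and the 2939 that fell from stages 3 and 4 to stage 5 and for all 16647 genes kept. Stage 1 held the highest mean for 36.5% of the falling genes and the lowest mean for 47.6% of the rising genes. Over all genes it was 31.9% and 34.1%. The choice of the genes leaves stage 5 at 0 for both, while over all genes stage 5 held 28.9% and 27.3%. The shares of called genes and of all genes thus have unlike bases, and no excess at stage 1 is read from them.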

How the data were processed

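Per the submitters' processing notes, reads were trimmed, aligned and normalised with tools that include Trimmomatic, HISAT2 and DESeq2. For versions, counter, genome build and annotation, "not given in the sources used here" applies. The deposited values are a normalised signal, made by the authors by scaling read counts with a size factor for each library. All values (100%) came out as whole reads to within 0.01 read, and those reads were recovered.

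The test was limma 3.58.1 (R 4.3.3, trended prior variance) on log2(normalised count + 1). The 5 libraries of stages 3 and 4 against the 3 of stage 5 formed the pooled fit, and a 3-stage fit gave the separate contrasts. Stages 1 and 2 were fitted on their own. Two-sided p-values were adjusted (Benjamini-Hochberg) over the 16647 genes, with calls below 0.05. Count tests on the recovered reads, by edgeR 4.0.16 and DESeq2 1.42.0, were alternatives. The procedure was tested on simulated data.

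Named genes had to be called, with groups that did not overlap and the higher group averaging 100 normalised counts or more; the 2 largest in each direction are given, by log2 change and by normalised counts. The genes, groups and rules were chosen with earlier results of these data known. Gene lists by function could not be matched to identifiers and were not tested. In stages 1 and 2 same-numbered libraries deviated together (r 0.423, 0.281 and 0.302), beside -0.428 to 0.141 for the other pairs. The labels give no pairing, and replicate 2 was the shallowest library in both stages (7576338 and 8601064 reads). These r values also share libraries, so a pairing by number was not settled. Intervals and floors cover counting error only.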

Additional observations from a re-analysis of the deposited data

Results flagged for a closer look

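In 2 genes the change to stage 5 differed between stage 3 and stage 4 by the test of the difference itself, which is the contrast of these stages with each other. For Ro07_G09021 the log2 changes to stage 5 were 2.06 ± 0.17 (SE) from stage 3 and 0.08 ± 0.19 from stage 4, a difference of 1.97 (limma adjusted p 0.0130). For Ro07_G04726 they were 8.28 ± 0.29 and 5.15 ± 0.32, a difference of 3.13 (limma adjusted p 0.0156). Both differences lost the call without stage 4 replicate 2, at log2 values of 1.75 and 2.81 (adjusted p 0.221 and 0.322). Among 15 results looked at over the 5 libraries of stages 3 and 4, no library stood apart from the others.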

How the results depend on the processing

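The pooled comparison called 4231 to 5242 genes when single libraries were left out, 2907 with the title letters as a term, 2311 among YH libraries and 2556 with a log2 change of at least 1, against 5526. Among YH libraries all 5526 kept their direction, with median log2 changes of 0.73 and -1.13. Every other setting stayed within 1.5 times. Called in one direction under all settings but the minimum of 50 were 1966 genes (786 rising, 1180 falling). Stage 3 against stage 5 gave 3545 with the letters, 1466 among YH libraries and 3979 to 5945 without single libraries. Stage 4 against stage 5 gave 1886, 266 and 1070 to 3308. Stage 3 against stage 4 gave 1 with a pseudocount of 10, 0 with a flat prior variance (1961 genes at an unadjusted p below 0.05), 1 with the letters, 0 among YH libraries (958), 7 with all 14 libraries, 303 with DESeq2 (no adjusted p for 3554 genes) and 0 to 175 without single libraries. A replicate block gave 5402 calls in the pooled comparison, 5727 and 2720 from stages 3 and 4, 0 between stages 3 and 4 (1842 genes at an unadjusted p below 0.05) and 7638 from stage 1 to stage 2. Stage 4 titles number as 1 and 2 the libraries whose names end in br2 and br3, so the block is doubtful there. With a term for the libraries named br1 the pooled comparison called 5949 genes, with 6358 and 3314 from stages 3 and 4 and 2 between them (both genes at adjusted p 0.0426). Between stages 3 and 5 same-numbered libraries gave r 0.242, -0.06 and -0.06, beside -0.15 to 0.19 for the other pairs. The difference in the share of the 10 genes with the most reads was 6.38 percentage points among YH libraries, where an exact permutation p cannot go below 0.2, and 5.96 to 7.04 without single libraries. The cause of these moves was not tested.

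Equal total reads and quantile normalization applied to both steps together, the replicate block set beside the later calls, and the change relative to the median, were chosen after the data had been seen. With equal total reads, 208 of the genes that rose to stage 5 had risen from stage 1 to stage 2, and 1578 of those that fell had fallen. Fitted log2 changes of the genes near 0 reads followed the pseudocount: with 10 they were 5.64 for Ro01_G29570, 5.37 for Ro03_G05912, -4.51 for Ro03_G06304 and -4.13 for Ro03_G26880.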
